A study of Rattus norvegicus with 16 samples.

Results

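Potassium channel genes were followed through RNA sequencing of rat frontal cortex. The members are the gene symbols that begin with Kcn followed by a further letter and that reached a mean of at least 1 FPKM over the 16 libraries. The authors deposited FPKM, that is, fragments counted on a transcript divided by its length and by the number of fragments mapped in its library. Of 91 Kcn symbols in the table, 75 were members, among 10971 symbols of any kind at that level and 17001 in the table. For a symbol with several loci (16 of the members) the locus of highest mean was taken. For 3 members, Kcnj14 (with Grwd1) and Kcnrg (with Trim13) among them, the locus also carries another gene's symbol. Their values are those of the merged locus. The rule used the mean over all libraries and no difference between groups. Just inside the threshold were Kcnmb2 at 1.04 FPKM and Kcnk10 at 1.11 FPKM, and just outside it were Kcne4 at 0.891 FPKM and Kcnmb1 at 0.663 FPKM.

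All animals were male Sprague-Dawley rats, 11 weeks of age at the start, and each diet lasted 7 weeks. Rats on a high fat diet received 5-AzaD in PBS by intraperitoneal injection for 10 days (HF_5AzaD; libraries 3, 5, 6 and 7), PBS by the same route for 10 days (HF_PBS; libraries 1 to 4), or no injection (HF; libraries 5 to 8). Rats on a chow diet (chow; libraries 1 to 4) had no injection. 5-AzaD is taken here as 5-aza-2′-deoxycytidine, which blocks DNA methyltransferases, and HF_PBS is its vehicle control. No group combined the chow diet with an injection. The comparison of HF with chow asks about the diet, that of HF_5AzaD with HF_PBS about the inhibitor, and those of an injected with an uninjected group add the injections. Injection and any batch in which the injected libraries were made cannot be told apart. The sample titles and the design text use the letters HFD differently, and the groups follow the stated treatment. Were HF and HF_PBS exchanged, the diet comparison would hold the 36 calls given below for HF_PBS against chow, and the inhibitor comparison the 6 given for HF_5AzaD against HF, in place of 0 and 0.

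Potassium channels let potassium leave a neuron along its gradient, and so set the resting potential, repolarise the action potential and space the spikes of a train. Voltage-gated (Kv) channels open on depolarisation, inward rectifiers (Kir, Kcnj genes) and tandem pore domain leak channels (Kcnk genes) work near rest, and calcium-activated channels follow spikes. Many act with auxiliary subunits that bring the pore to the membrane or tune its gating. In cortex most of these genes are known from neurons, while Kcnj10 and Kcnj16 are known from glia, where they buffer potassium around active cells.

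Promoters are shown for the 3 members that fell in all 4 comparisons of injected with uninjected groups and for Kcne1l (Kcne5 in RefSeq), which rose in HF_PBS against chow. The inhibitor acts on methylation of cytosines followed by guanine, and each such CG is in capitals. The sequences come from RefSeq on the build GRCr8, 5′ to 3′ on the gene's strand, from 250 bases before the annotated start to 50 after it.
Kcnab2, chr5:168270711-168271010, minus strand: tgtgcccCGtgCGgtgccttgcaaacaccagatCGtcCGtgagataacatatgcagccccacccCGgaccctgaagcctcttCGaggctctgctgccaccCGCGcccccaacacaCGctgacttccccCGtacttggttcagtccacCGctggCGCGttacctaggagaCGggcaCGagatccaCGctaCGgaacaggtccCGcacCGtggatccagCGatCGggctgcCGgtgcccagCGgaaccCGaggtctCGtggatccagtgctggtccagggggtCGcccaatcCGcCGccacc
Kcnh7, chr3:68230622-68230921, minus strand: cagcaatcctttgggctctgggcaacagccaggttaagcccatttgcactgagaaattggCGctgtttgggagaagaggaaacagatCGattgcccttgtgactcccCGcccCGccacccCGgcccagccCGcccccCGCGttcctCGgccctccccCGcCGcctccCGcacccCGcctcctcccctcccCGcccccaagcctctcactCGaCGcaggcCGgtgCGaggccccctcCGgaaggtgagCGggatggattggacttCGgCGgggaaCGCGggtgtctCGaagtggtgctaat
Kcnj13, chr9:95518937-95519236, minus strand: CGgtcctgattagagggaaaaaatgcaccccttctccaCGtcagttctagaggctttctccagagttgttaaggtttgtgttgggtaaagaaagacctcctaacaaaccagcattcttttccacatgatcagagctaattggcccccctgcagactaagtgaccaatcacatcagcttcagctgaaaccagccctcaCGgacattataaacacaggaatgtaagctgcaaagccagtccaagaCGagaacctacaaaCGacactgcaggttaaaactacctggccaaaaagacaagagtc
Kcne1l, chrX:110727800-110728099, minus strand: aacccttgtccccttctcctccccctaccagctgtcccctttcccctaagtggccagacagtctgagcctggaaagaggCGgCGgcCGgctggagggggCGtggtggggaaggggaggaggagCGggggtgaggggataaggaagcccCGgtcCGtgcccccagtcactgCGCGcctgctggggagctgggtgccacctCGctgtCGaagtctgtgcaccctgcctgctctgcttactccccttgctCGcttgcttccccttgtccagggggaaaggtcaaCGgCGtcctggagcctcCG

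The Kcnab2 promoter held 28 CG, the Kcnh7 promoter 25, the Kcne1l promoter 15 and the Kcnj13 promoter 5. A CG reads the same on both strands, and 94.5% of the 33469 promoters in the reference hold at least 1. Promoters matched 49 of the 75 members, with a median of 19 CG and a range of 1 to 48. The median was 20 for the 23 tested members that fell in at least 1 of the 4 comparisons and 18.5 for the 24 that fell in none. Promoters of all tested symbols had a median of 21. The 3 members that fell throughout included a promoter rich in CG and a promoter poor in it. Methylation itself was not analysed here.

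The libraries differed in more than their labels. The 6 markers of cortical excitatory neurons (among them Slc17a7, Tbr1, Neurod6, Camk2a and Nrgn) were measured in every group. Their score, the mean log2 value less the mean over 16 libraries, was -1.06 to 0.43 in HF_5AzaD, -1.51 to 0.39 in HF_PBS, -0.35 to 0.66 in HF and 0.40 to 0.45 in chow. HF_PBS 3 at -1.51, HF_5AzaD 7 at -1.06 and HF_5AzaD 5 at -0.98 were the lowest. Markers of striatal medium spiny neurons, of which 9 of 10 listed symbols were measured, scored 1.22 to 1.64 in HF_PBS 2, 3 and 4 and 2.44 in HF 8, and at most 0.14 elsewhere. Myelin markers scored 1.25 in HF_PBS 3 and 1.29 in HF_PBS 4, and at most 0.44 elsewhere. Depth was unknown in absolute terms. Relative to the deepest library, chow 2, the steps of the low values put it at 34.6% to 45.0% in HF_5AzaD, 32.5% to 42.6% in HF_PBS, 30.1% to 37.8% in HF and 38.7% to 100% in chow. Counts of called members are also given without these libraries, values of single genes with all of them unless stated.

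In chow cortex Kcnab2, an auxiliary beta subunit of Kv1 channels, had the highest FPKM of all members, and its range did not overlap that of the next. It stood at 171 ± 4.14 FPKM (mean ± SD, n = 4, as throughout). Next came Kcnh3, a slow voltage-gated channel of forebrain neurons, at 60.2 ± 1.75 FPKM, Kcnj9, a subunit of G protein-gated channels, at 59.7 ± 10.5 FPKM, and Kcna2, a Kv1 pore of axons, at 58.6 FPKM. In chow 13 members were above 50 FPKM, 36 above 20, 19 between 5 and 20, and 20 under 5. Neighbours in the order of chow levels overlapped in range in 71 of 74 pairs.

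Summed over the 75 members, the FPKM were 1171 ± 258 in HF_5AzaD, 1050 ± 257 in HF_PBS, 1540 ± 263 in HF and 1790 ± 49.0 in chow. Every injected library had 43 to 54 of the 72 tested members below all 4 chow libraries, a share of 59.7% to 75.0%, against 32.4% to 39.9% of all tested loci. The HF libraries had 15 to 40 such members, 20.8% to 55.6%, against 29.0% to 34.7% of all loci. At the median the members also varied more between libraries of a group than all tested loci did. Their median coefficient of variation was 37.2% in HF_5AzaD, 31.9% in HF_PBS, 26.7% in HF and 10.8% in chow. Over all tested loci it was 17.8% in HF_5AzaD, 18.8% in HF_PBS, 15.9% in HF and 9.75% in chow. Within HF, library 6 was the highest for 37 of 72 members, 51.4% against 28.0% of all loci. Within HF_PBS, library 3 was the lowest for 41 of 72, 56.9% against 28.1%.

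**Figure D1:**
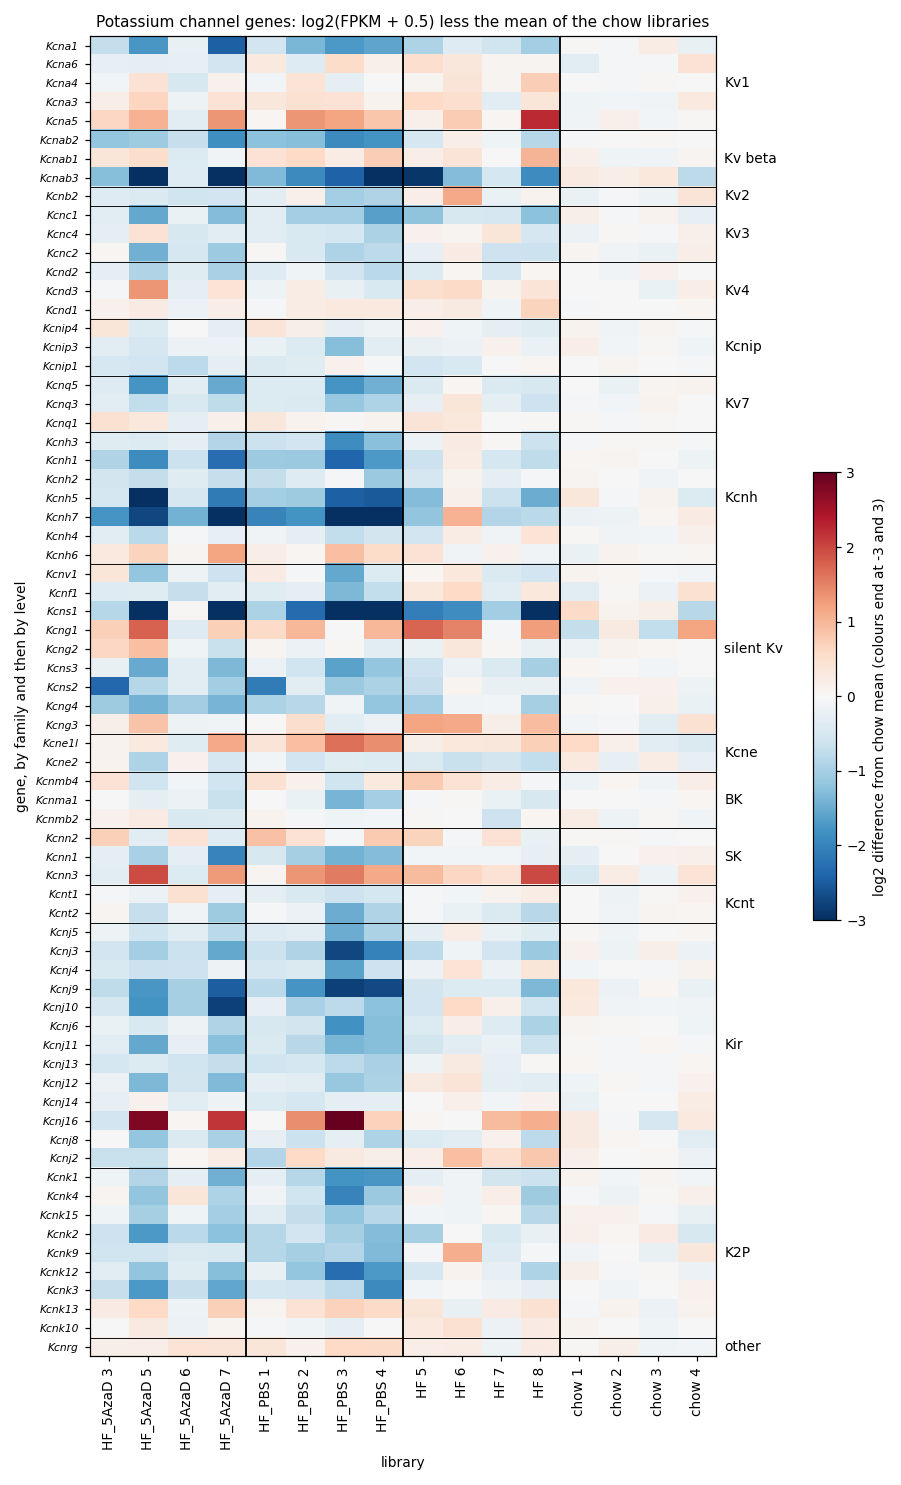
Level of 70 of the 72 tested potassium channel genes in each library, as log2(FPKM + 0.5) less the mean of the 4 chow libraries (blue below chow, red above; colours end at -3 and 3). Rows are genes ordered by family and level, columns are libraries in the order HF_5AzaD, HF_PBS, HF and chow. Blue dominates the 8 injected libraries, most of all HF_5AzaD 5 and 7 and HF_PBS 3 and 4, while Kcnj16, Kcnn3 and Kcna5 are red in several of them.

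The summed level was set beside the excitatory neuron markers. HF_PBS 3, the lowest in those markers, also had the lowest sum at 790 FPKM, and HF 6, the highest in them, had the highest at 1906 FPKM. HF_5AzaD 7 had 879 FPKM at a score of -1.06. The order was not the same throughout, since HF_PBS 4 had 884 FPKM at a score of -0.32 and HF 8 had 1285 FPKM at -0.35. The lowest sum in chow was 1740 FPKM. Of the libraries with scores near those of chow, HF_5AzaD 3 had 1397 FPKM at a score of 0.43, and HF_PBS 1 had 1343 FPKM at 0.39. Uninjected HF 5 had 1452 FPKM at 0.49, and HF 7 had 1518 FPKM at 0.28. Markers of upper cortical layers, scored alike, stood at 0.30 in HF_5AzaD 3, -0.11 in HF_PBS 1, -0.27 in HF 5 and 0.20 in HF 7. In chow they ran from 0.26 to 0.69. Markers of deep cortical layers stood at -0.15, 0.44, 0.47 and -0.25 in the same libraries in turn. Their chow scores ran from -0.55 to 0.15. The part of the layers in the sums was not tested. Fewer cells of a type and less RNA per cell cannot be told apart in bulk tissue.

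**Figure D2:**
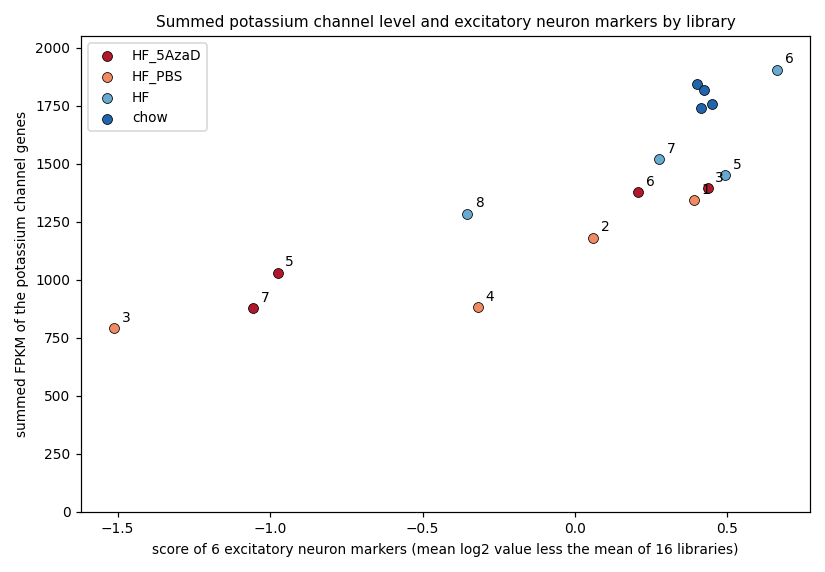
Summed FPKM of the 75 potassium channel genes (vertical axis, from 0) against the score of 6 excitatory neuron markers (horizontal axis, log2 units) in the 16 libraries, coloured by group, with library numbers beside the points of the 3 high fat groups. The sums of the injected libraries lie between 790 and 1397 FPKM, and those of HF 5, 7 and 8 between 1285 and 1518 FPKM. All of these are below the lowest chow library at 1740 FPKM.

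Differences between groups were tested with limma, a linear model for all loci at once, on log2(FPKM + 0.5), and all differences below are on that scale, first-named group less second. A gene rose or fell where its p, adjusted by Benjamini-Hochberg over the 14824 tested loci, was under 0.05. The labels do not state that each library is a separate animal, so the p-values measure the spread between these samples. Of the 75 members, 72 were tested. The other 3, Kcna2 and Kcne3 among them, each carry 1 value that the authors' software marked as failed, and were fitted apart, with that value kept and with it missing.

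HF_PBS differed most from chow. Of the 72 tested members, 34 fell and 2 rose, 50% in all, where 28.2% of all tested loci changed. The 34 that fell are 47.2% of the members, against 15.7% of all loci, and the 2 that rose are 2.78%, against 12.4% of all loci. The median difference of the members was -0.61, against 0.01 over all loci, and 37 members lay wholly below chow in range, 51.4% of the members and 19.1% of all loci. The 15 with the lowest p, with differences of -2.50 to -0.72, included Kcnab2, Kcnj13, Kcnh7, Kcnj9, Kcnh1, Kcnh3, Kcnk9, Kcnj3, Kcnk12, Kcnj11, Kcnq3, Kcnk1 and Kcnj6. The other 19 were Kcnk2, Kcnj5, Kcnj4, Kcnab3, Kcnn1, Kcnt1, Kcna1, Kcnk3, Kcnj14, Kcns1, Kcnc1, Kcnk15, Kcnh2, Kcng4, Kcnip3, Kcnh5, Kcnq5, Kcns2 and Kcnf1. The number of calls was 17 without HF_PBS 3 (23.6% of members, 19.1% of all loci), 12 without HF_PBS 4 (16.7% and 13.6%), 17 without chow 3 (23.6% and 18.3%), 22 without chow 4 (30.6% and 17.7%) and 24 without chow 2 (33.3% and 19.3%). Without HF_PBS 3 or HF_PBS 4, and without chow 3, the share of members was closer to that of all loci called in either direction. The members called without HF_PBS 3, HF_PBS 4 or chow 3 all fell, and the share of all loci that fell was not counted in those fits. Of the 24 called without chow 2, 22 fell and 2 rose. Every share of all loci given with libraries left out, here and below, counts rises and falls together. Calls numbered 33, of which 31 fell and 2 rose, without the 3 libraries lowest in excitatory neuron markers (45.8% and 23.7%). Without HF_PBS 3 and 4, the libraries high in myelin markers, 0 members and 0.681% of all loci were called. Without the 4 libraries high in striatal markers HF_PBS has 1 library, which is assumed to vary like the other groups, and 0 members and 0.0135% of all loci were called.

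HF_5AzaD also lay below chow. Of 72 members 17 fell and 0 rose, 23.6%, where 16.3% of all tested loci changed and 9.11% fell. The median difference of the members was -0.47, against 0.00 over all loci. By ranges, 32 members lay wholly below chow, 44.4% of the members and 14.8% of all loci. The 15 with the lowest p, with differences of -2.23 to -0.53, included Kcng4, Kcnab2, Kcnj13, Kcnh7, Kcnk2, Kcnk3, Kcnh1, Kcnj10, Kcnj9, Kcnd2, Kcnip1, Kcna1, Kcnj11 and Kcnj12, and Kcnab3 and Kcnh2 also fell. The number of calls was 9 without HF_5AzaD 5 (12.5% of members, 13% of all loci) and 3 without HF_5AzaD 7 (4.17% and 2.69%). It was 8, 6, 4 and 5 without chow 1, 2, 3 and 4 in turn, 5.56% to 11.1% of members against 4.7% to 8.71% of all loci. Without the 3 libraries lowest in excitatory neuron markers, which leaves HF_5AzaD 3 and 6, 0 members and 0.499% of all loci were called. With the 4 libraries high in striatal markers left out 23 members fell, 31.9% against 18% of all loci called in either direction. With the 2 high in myelin markers left out 24 fell, 33.3% against 21% called in either direction.

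HF shares the diet with the injected groups. In HF_PBS 15 of 72 members fell and 0 rose, 20.8%, where 23.9% of all loci changed and 13.2% fell. The median difference was -0.51, against 0.01 over all loci. These 15 included Kcnj13, Kcnab2, Kcnk9, Kcnh7, Kcnj4, Kcnh3, Kcnj14, Kcnf1, Kcnt1, Kcnh1, Kcnj9, Kcnn1, Kcng3 and Kcnb2. The number of calls was 23 without HF_PBS 1 (31.9% of members, 23.7% of all loci), 7 without HF_PBS 4 (9.72% and 11.4%) and 5 without HF 6 (6.94% and 11%). It was 15 without the 3 libraries lowest in excitatory neuron markers (20.8% and 20.6%). Without the 4 libraries high in striatal markers 0 members and 0% of all loci were called, and without the 2 high in myelin markers 0 members and 2.16% of all loci. In HF_5AzaD 6 members fell and 0 rose, 8.33%, where 14.2% of all loci changed and 7.64% fell, with a median of -0.32 against 0.02. These 6 were Kcnj13, Kcnh7, Kcnk3, Kcnab2, Kcnj10 and Kcnj12. None of the 72 was called without HF_5AzaD 7, without HF 6, or without the 3 libraries lowest in excitatory neuron markers, where 2.7%, 2.66% and 3.62% of all loci were. Calls numbered 7 without the 4 libraries high in striatal markers (9.72% of members, 10.2% of all loci) and 12 without the 2 high in myelin markers (16.7% and 18%). At an unadjusted p under 0.05 there were 21 members with all libraries, 29.2% against 32.5% of all loci.

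**Figure D3:**
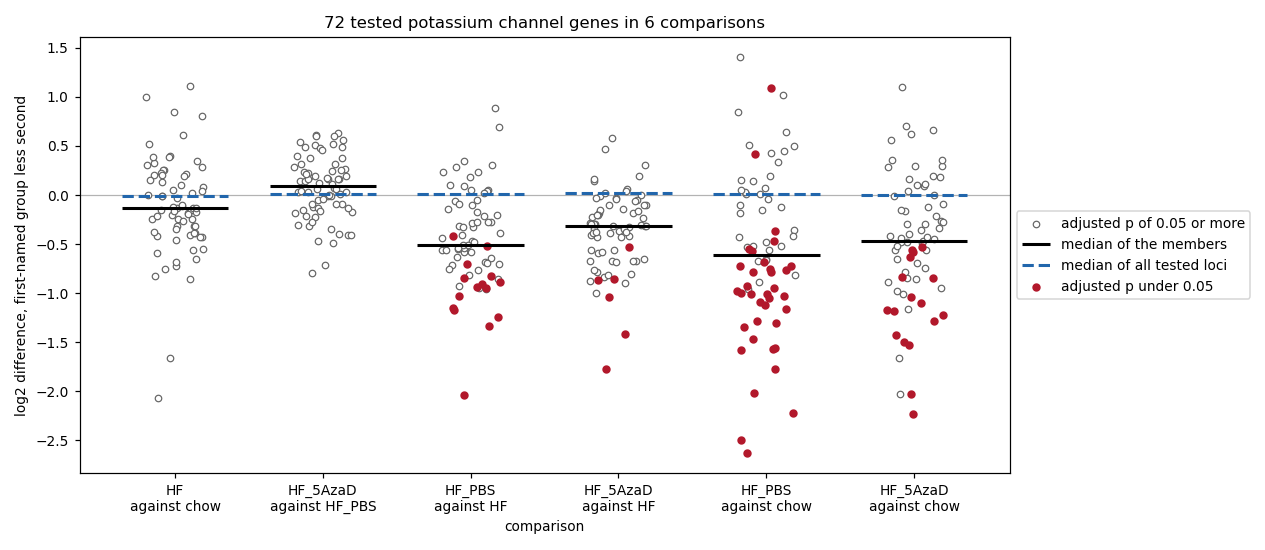
Log2 difference of each of the 72 tested potassium channel genes in the 6 comparisons (vertical axis, first-named group less second). Filled points have an adjusted p under 0.05, open points do not; the solid line is the median of the members and the dashed line that of all 14824 tested loci. The members' median lies at -0.61 in HF_PBS against chow and at 0.09 in HF_5AzaD against HF_PBS, and the median of all loci stays near 0.

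Over the 4 comparisons of an injected with an uninjected group, which share their samples, 3 members fell in all of them (Kcnab2, Kcnh7 and Kcnj13) and 4 fell in 3 (Kcnh1, Kcnj9 and Kcnk3 among them). A further 15 fell in 2 and 18 in 1, and 30 of the 72 fell in none and rose in none. The share that fell in all 4 was 4.17% of members against 4.34% of all tested loci, and in 3 it was 5.56% against 3.02%. In 2 it was 20.8% against 6.32%, and in 1 it was 25% against 6.58%.

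Kcnab2 encodes the Kv beta subunit that binds Kv1 pores and carries an oxidoreductase fold. It had 76.6, 82.1, 106 and 47.7 FPKM in HF_5AzaD libraries 3, 5, 6 and 7 and 72.2, 70.4, 45.2 and 48.7 FPKM in HF_PBS. Its values were 121, 198, 157 and 95.2 FPKM in HF and 166, 173, 175 and 172 FPKM in chow. Both injected groups lay below every chow library, and HF_PBS also below every HF library, while HF_5AzaD 6 was above HF 8. The difference from chow was -1.18 ± 0.25 (SE, adjusted p = 0.0123) in HF_5AzaD and -1.56 ± 0.25 (adjusted p = 0.00271) in HF_PBS. From HF it was -0.87 (adjusted p = 0.0326) in HF_5AzaD and -1.24 (adjusted p = 0.00468) in HF_PBS.

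Kcnh7, a channel of the ether-à-go-go related group that shapes firing near threshold, had the largest differences among members called in all 4 comparisons. It was at 2.63, 1.12, 3.54 and 0.822 FPKM in HF_5AzaD and 2.20, 2.62, 0.720 and 0.777 FPKM in HF_PBS. It was at 4.23, 21.5, 5.33 and 5.67 FPKM in HF and 8.96, 9.23, 10.7 and 12.3 FPKM in chow. No injected library reached the lowest uninjected one, and HF 6 was above every chow library while the other HF libraries were below them all. Against chow the difference was -2.23 ± 0.47 in HF_5AzaD (adjusted p = 0.0129) and -2.50 ± 0.47 in HF_PBS (adjusted p = 0.00394). Against HF it was -1.78 in HF_5AzaD (adjusted p = 0.0261) and -2.04 in HF_PBS (adjusted p = 0.00903).

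Kcnj13, an inward rectifier best known from epithelia such as the choroid plexus, varied little within groups. It was at 11.5, 12.6, 11.1 and 10.2 FPKM in HF_5AzaD, 10.9, 11.5, 9.54 and 8.45 FPKM in HF_PBS, 15.1, 20.3, 14.2 and 17.4 FPKM in HF and 17.6, 16.3, 16.1 and 17.7 FPKM in chow. The 8 injected libraries lay below the 8 uninjected ones. The difference from chow was -0.56 ± 0.12 in HF_5AzaD (adjusted p = 0.0126) and -0.72 ± 0.12 in HF_PBS (adjusted p = 0.00286). From HF it was -0.53 in HF_5AzaD (adjusted p = 0.0147) and -0.70 in HF_PBS (adjusted p = 0.00284). With its 2 loci summed, the calls of HF_5AzaD were lost, at adjusted p = 0.0806 against HF and 0.0502 against chow. In the reference Kcnj13 overlaps Gigyf2, which is not analysed here. Strandedness of the libraries is not stated in the labels, so reads of the overlapping genes cannot be told apart. Markers of the choroid plexus (Ttr, Folr1 and Kl) summed to at most 7.44 FPKM in HF_5AzaD, 26.6 FPKM in HF_PBS, 15.1 FPKM in HF and 36.3 FPKM in chow, and their part in the result was not tested.

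**Figure D4:**
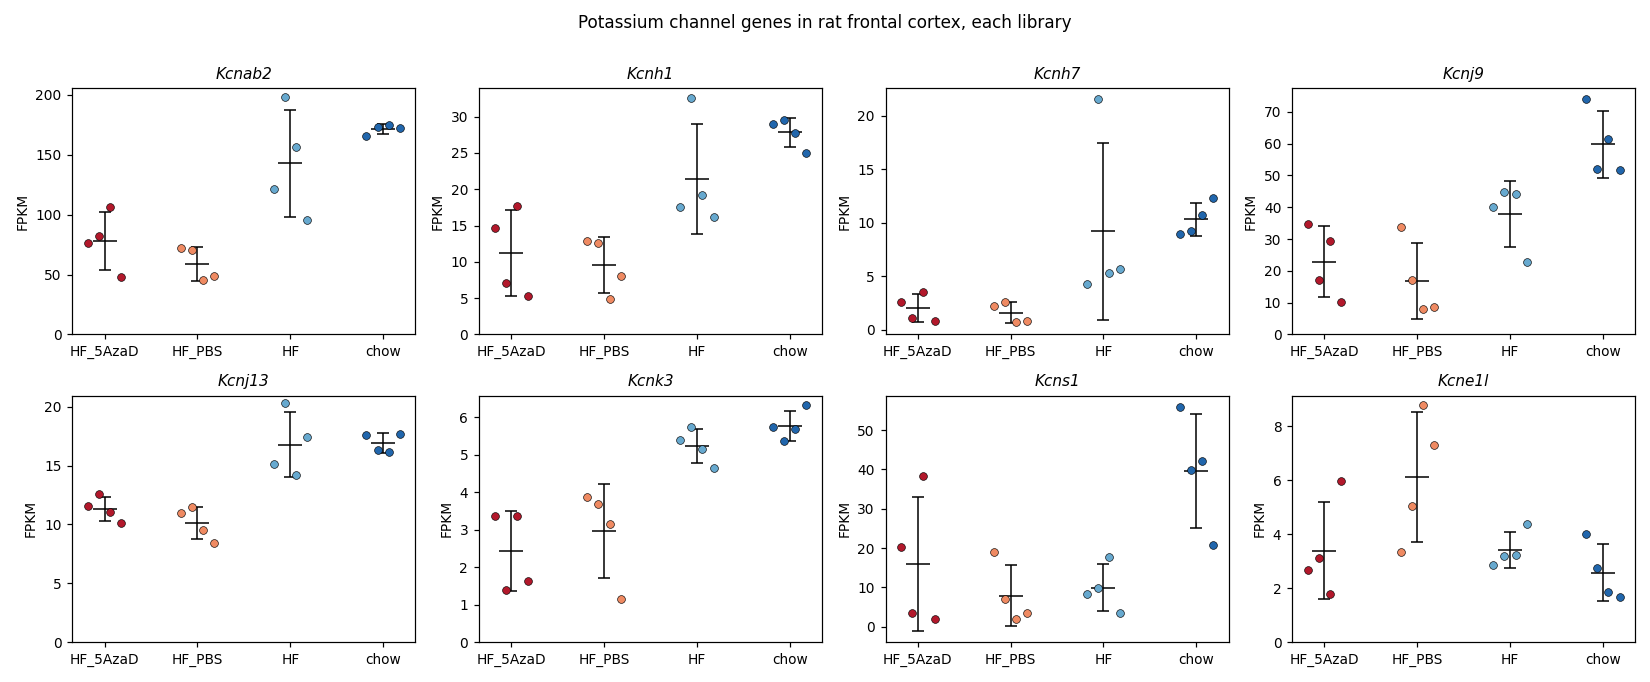
FPKM in each library (points) with the mean and SD of each group (lines) for 6 of the 7 members that fell in at least 3 of the 4 comparisons of injected with uninjected groups, and for Kcns1 and Kcne1l. Groups run HF_5AzaD, HF_PBS, HF and chow from left to right. For Kcnh7, Kcnj13 and Kcnk3 all injected libraries lie below all uninjected ones, and HF 6 stands far above the other HF libraries for Kcnh7.

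Kv1 channels open at low voltages and set spike threshold and axonal firing. Of 5 tested members 0 changed against HF, where 23.9% of all loci did in HF_PBS and 14.2% in HF_5AzaD. Against chow 1 of 5 fell in each injected group, 20% against 15.7% of all loci in HF_PBS and 9.11% in HF_5AzaD. That member was Kcna1, at 20.6 ± 13.4 FPKM in HF_5AzaD, 17.9 ± 7.29 FPKM in HF_PBS, 26.1 ± 5.42 FPKM in HF and 43.0 ± 5.80 FPKM in chow. Its difference from chow was -1.28 in HF_5AzaD (adjusted p = 0.0381) and -1.31 in HF_PBS (adjusted p = 0.0224). Kcna2, its partner in axons, had 40.4, 15.3, 42.2 and 15.8 FPKM in HF_5AzaD, 36.8, 24.5, 14.0 and 15.7 FPKM in HF_PBS, 29.8, 50.6, 44.3 and 22.2 FPKM in HF and 65.0, 56.5, 63.3 and 49.8 FPKM in chow. The HF value of 50.6 is the failed one. All injected libraries lay below all chow libraries for Kcna2. Its difference from chow was -1.18 in HF_5AzaD and -1.44 in HF_PBS, with adjusted p = 0.0453 and 0.0137 when the failed value was left missing. Kcna3, Kcna4, Kcna5 and Kcna6 passed in no comparison, and Kcna5 reached 6.74 FPKM in HF 8, against 0.920 to 1.19 FPKM in chow.

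Of the other beta subunits, Kcnab3 fell against chow, at 10.3 ± 9.69 FPKM in HF_5AzaD and 6.90 ± 3.79 FPKM in HF_PBS, where HF had 11.1 ± 7.36 FPKM and chow 31.9 ± 9.68 FPKM. Kcnab1 passed in no comparison, at 27.9 ± 8.10 FPKM in HF_5AzaD, 36.5 ± 5.62 FPKM in HF_PBS, 35.0 ± 11.7 FPKM in HF and 25.5 ± 2.61 FPKM in chow.

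Kv2 channels are the delayed rectifiers of neuronal cell bodies. Kcnb2 fell in HF_PBS against HF, at 1.80 ± 0.885 FPKM in HF_PBS and 3.64 ± 1.85 FPKM in HF (adjusted p = 0.0447), a call lost in 14 of 22 alternatives.

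The Kv3 channels let fast-spiking interneurons fire at high rates. Kcnc1 was at 31.2 ± 14.1 FPKM in HF_5AzaD, 27.0 ± 10.3 FPKM in HF_PBS, 29.2 ± 8.40 FPKM in HF and 52.2 ± 6.54 FPKM in chow. It fell in HF_PBS against chow by 1.00 (adjusted p = 0.0305). Kcnc2 and Kcnc4 passed in no comparison. Interneuron markers, 7 of 8 tested, had 0 calls in all 6 comparisons, where 0% to 28.2% of all loci were called. They did not move together, with 5 above 0 and 2 below in HF_PBS against chow. Pvalb had 31.0 to 294 FPKM in HF_5AzaD, 121 to 256 FPKM in HF_PBS, 81.8 to 190 FPKM in HF and 187 to 315 FPKM in chow. Sst had 259 to 571 FPKM in HF_5AzaD, 257 to 665 FPKM in HF_PBS, 241 to 324 FPKM in HF and 251 to 312 FPKM in chow.

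Kv4 channels carry the transient A-type current of dendrites, and Kcnip genes encode the calcium-binding proteins that accompany them. Kcnd2 was at 19.9 ± 4.88 FPKM in HF_5AzaD, 22.1 ± 4.56 FPKM in HF_PBS, 26.8 ± 5.62 FPKM in HF and 30.5 ± 2.15 FPKM in chow, and fell in HF_5AzaD against chow (-0.63, adjusted p = 0.0353). Kcnd3 passed in no comparison, at 11.1 ± 6.29 FPKM in HF_5AzaD, 7.04 ± 1.55 FPKM in HF_PBS, 10.4 ± 1.5 FPKM in HF and 7.78 ± 0.963 FPKM in chow. Kcnip4 was also not called in any, at 52.3 ± 12.9 FPKM in HF_5AzaD, 56.5 ± 12 FPKM in HF_PBS, 49.3 ± 7.68 FPKM in HF and 54.5 ± 4.01 FPKM in chow. Kcnip1 fell in HF_5AzaD against chow, at 18.1 ± 2.53 FPKM in HF_5AzaD and 26.3 ± 0.997 FPKM in chow. Kcnip3 fell in HF_PBS against chow, at 41.1 ± 11.8 FPKM in HF_PBS and 58.5 ± 6.03 FPKM in chow. Kcnip2 stayed under the threshold of the rule, at 0.215 FPKM in HF_5AzaD, 0.283 FPKM in HF_PBS, 0.241 FPKM in HF and 0.389 FPKM in chow.

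Kv7 channels carry the M-current, which muscarinic receptors close. Kcnq3 was at 15.9 ± 2.52 FPKM in HF_5AzaD, 14.4 ± 3.65 FPKM in HF_PBS, 21.2 ± 6.50 FPKM in HF and 23.5 ± 1.33 FPKM in chow. Kcnq5 was at 21.6 ± 10.7 FPKM in HF_5AzaD, 21.3 ± 9.94 FPKM in HF_PBS, 32.2 ± 6.11 FPKM in HF and 39.9 ± 3.61 FPKM in chow. Both fell in HF_PBS against chow (adjusted p = 0.0167 and 0.0424).

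The Kcnh genes had the largest share of called members among families of more than 5 in HF_PBS against chow. There 5 of 7 fell, 71.4% against 15.7% of all loci. Kcnh1, which encodes the ether-à-go-go channel, had 14.7, 7.09, 17.6 and 5.31 FPKM in HF_5AzaD, 12.9, 12.6, 4.92 and 8.05 FPKM in HF_PBS, 17.5, 32.6, 19.2 and 16.2 FPKM in HF and 29.0, 29.6, 27.7 and 25.0 FPKM in chow. Chow was above every injected library. It fell by 1.43 in HF_5AzaD (adjusted p = 0.0213) and by 1.57 in HF_PBS (adjusted p = 0.00739) against chow, and by 1.15 in HF_PBS against HF (adjusted p = 0.0314). Kcnh3 was at 43.6 ± 7.55 FPKM in HF_5AzaD, 29.9 ± 11.4 FPKM in HF_PBS, 56.2 ± 13.8 FPKM in HF and 60.2 ± 1.75 FPKM in chow, and fell in HF_PBS against both HF and chow. Kcnh2 fell in both injected groups and Kcnh5 in HF_PBS, each against chow. Kcnh4 and Kcnh6 passed in no comparison.

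The silent Kv subunits do not form channels alone and modify Kv2. Of 9 tested, 4 fell in HF_PBS against chow (Kcns1, Kcns2, Kcnf1 and Kcng4), 1 in HF_5AzaD against chow (Kcng4) and 2 in HF_PBS against HF (Kcnf1 and Kcng3). In that order these were 44.4%, 11.1% and 22.2%, against 15.7%, 9.11% and 13.2% of all loci that fell. Kcns1 varied widely between libraries, with 20.4, 3.43, 38.2 and 1.84 FPKM in HF_5AzaD, 19.0, 7.10, 1.86 and 3.48 FPKM in HF_PBS, 8.43, 9.89, 17.8 and 3.40 FPKM in HF and 55.9, 40.0, 42.1 and 20.7 FPKM in chow. HF_5AzaD 3 and 6 were far above 5 and 7, and every HF_PBS library lay below every chow library, a difference of -2.63 (adjusted p = 0.0293). Kcng4 had 1.48, 1.04, 1.51 and 1.07 FPKM in HF_5AzaD, 1.64, 1.84, 3.35 and 1.35 FPKM in HF_PBS, 1.54, 3.34, 3.39 and 1.56 FPKM in HF and 3.73, 3.63, 4.10 and 3.11 FPKM in chow. All HF_5AzaD libraries lay below all chow libraries, a difference of -1.23 ± 0.25 (adjusted p = 0.0121).

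Only 2 members rose in any of the 6 comparisons, both in HF_PBS against chow. Kcne1l, a small accessory subunit, had 2.66, 3.12, 1.80 and 5.97 FPKM in HF_5AzaD, 3.35, 5.05, 8.78 and 7.29 FPKM in HF_PBS, 2.84, 3.19, 3.22 and 4.39 FPKM in HF and 4.00, 2.77, 1.87 and 1.69 FPKM in chow. HF_PBS 3 and 4, the libraries high in myelin markers, were the highest, and HF_PBS 1 was below chow 1. Its difference was 1.09 ± 0.33 (adjusted p = 0.0241), and without those 2 libraries it was 0.65 ± 0.37 (adjusted p = 0.317). Kcnrg, a regulator of channel assembly whose locus is merged with Trim13, was at 4.89 ± 0.441 FPKM in HF_5AzaD, 5.42 ± 0.847 FPKM in HF_PBS, 4.34 ± 0.585 FPKM in HF and 3.91 ± 0.405 FPKM in chow (0.42 for HF_PBS less chow, adjusted p = 0.0233). Of the other accessory genes Kcne2 passed in no comparison, nor did Kcne3 with its failed value kept or missing.

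Inward rectifiers, the largest family, passed most often by number. Of 13 tested, 8 fell in HF_PBS against chow, 61.5% against 15.7% of all loci, and 5 in HF_5AzaD against chow, 38.5% against 9.11%. Against HF 4 fell in HF_PBS, 30.8% against 13.2% of all loci, and 3 in HF_5AzaD, 23.1% against 7.64%. The G protein-gated subunits Kcnj3, Kcnj6, Kcnj9 and Kcnj5, which slow neurons when metabotropic receptors are engaged, all fell in HF_PBS against chow. Kcnj9 had 34.6, 17.2, 29.3 and 10.3 FPKM in HF_5AzaD, 33.7, 17.0, 8.0 and 8.69 FPKM in HF_PBS, 40.1, 44.7, 44.3 and 22.8 FPKM in HF and 74.0, 51.8, 61.3 and 51.7 FPKM in chow. No injected library reached the chow range, and HF 5, 6 and 7 lay above all injected libraries. It differed by -1.50 ± 0.43 in HF_5AzaD (adjusted p = 0.0323) and -2.02 ± 0.43 in HF_PBS (adjusted p = 0.0056) from chow, and by -1.34 in HF_PBS from HF (adjusted p = 0.0352).

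Kcnj3 was at 29.6 ± 8.21 FPKM in HF_5AzaD, 21.5 ± 13.0 FPKM in HF_PBS, 36.3 ± 10.8 FPKM in HF and 55.9 ± 7.10 FPKM in chow. Kcnj6 was at 15.3 ± 3.48 FPKM in HF_5AzaD, 10.4 ± 4.39 FPKM in HF_PBS, 16.1 ± 5.52 FPKM in HF and 20.4 ± 1.29 FPKM in chow. Kcnj4, a strong rectifier of forebrain neurons, fell in HF_PBS against both uninjected groups, at 29.3 ± 5.09 FPKM in HF_5AzaD, 24.4 ± 7.76 FPKM in HF_PBS, 44.3 ± 9.99 FPKM in HF and 40.4 ± 2.37 FPKM in chow. Kcnj11, the pore of ATP-sensitive channels, fell against chow in both injected groups, and Abcc8, its sulfonylurea receptor, fell in HF_PBS against chow.

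Kcnj10 and Kcnj16 are the glial rectifiers. Kcnj10 had 29.2, 11.7, 20.5 and 5.51 FPKM in HF_5AzaD, 34.8, 20.8, 23.8 and 17.4 FPKM in HF_PBS, 27.7, 63.3, 45.9 and 27.4 FPKM in HF and 51.3, 38.5, 39.2 and 38.4 FPKM in chow. It fell in HF_5AzaD by 1.42 against HF (adjusted p = 0.033) and by 1.52 against chow (adjusted p = 0.0259). A lesser Kcnj10 locus did not follow, at 18.1 ± 13.8 FPKM in HF_5AzaD, 21.6 ± 11.4 FPKM in HF_PBS, 14.6 ± 8.48 FPKM in HF and 21.2 ± 6.77 FPKM in chow. With both loci summed the difference of HF_5AzaD from HF was -0.69 (adjusted p = 0.106). Kcnj16, which pairs with Kcnj10 in glia, had 0.657, 11.5, 1.28 and 7.12 FPKM in HF_5AzaD, 1.23, 4.01, 19.5 and 2.27 FPKM in HF_PBS, 1.30, 1.21, 2.83 and 3.14 FPKM in HF and 1.56, 1.19, 0.707 and 1.59 FPKM in chow. It passed in no comparison, and its 3 highest values were those of HF_PBS 3 and HF_5AzaD 5 and 7, the libraries lowest in excitatory neuron markers. Of the astrocyte markers 6 of 7 were tested. In HF_PBS 1 rose against HF, 16.7%, where 23.9% of all loci changed in either direction. Beside chow 2 rose, 33.3%, where 12.4% of all loci rose. None was called in HF_5AzaD, where 14.2% of all loci were called against HF and 16.3% against chow.

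Of the 9 leak channels of the Kcnk group, which hold the resting potential, 6 fell in HF_PBS and 2 in HF_5AzaD against chow. These were 66.7% and 22.2%, against 15.7% and 9.11% of all loci. Against HF 1 fell in each injected group, 11.1% against 13.2% of all loci in HF_PBS and 7.64% in HF_5AzaD. Kcnk3, an acid-sensitive leak channel, had 3.37, 1.40, 3.36 and 1.63 FPKM in HF_5AzaD, 3.88, 3.69, 3.16 and 1.16 FPKM in HF_PBS, 5.39, 5.73, 5.15 and 4.66 FPKM in HF and 5.74, 5.36, 5.69 and 6.32 FPKM in chow. All injected libraries lay below all uninjected ones. It fell in HF_5AzaD by 1.04 against HF (adjusted p = 0.0294) and by 1.17 against chow (adjusted p = 0.02), and in HF_PBS by 0.95 against chow (adjusted p = 0.0247). Its acid-sensitive relative Kcnk9 was at 7.67 ± 0.459 FPKM in HF_5AzaD, 5.34 ± 0.842 FPKM in HF_PBS, 13.6 ± 7.28 FPKM in HF and 11.3 ± 2.04 FPKM in chow, and fell in HF_PBS against both uninjected groups.

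Kcnk2, a channel gated by stretch and lipids, fell against chow in both injected groups, at 9.84 ± 3.29 FPKM in HF_5AzaD, 10.8 ± 2.35 FPKM in HF_PBS, 15.8 ± 4.37 FPKM in HF and 21.1 ± 4.47 FPKM in chow. Kcnk1 fell in HF_PBS against chow, at 32.9 ± 12.6 FPKM in HF_5AzaD, 24.5 ± 13.0 FPKM in HF_PBS, 38.3 ± 6.75 FPKM in HF and 50.4 ± 3.50 FPKM in chow. Its lesser locus was at 23.2 ± 5.03 FPKM in HF_5AzaD, 23.8 ± 8.11 FPKM in HF_PBS, 12.1 ± 6.80 FPKM in HF and 14.8 ± 5.08 FPKM in chow, and with both loci summed the difference of HF_PBS from chow was -0.46 (adjusted p = 0.112). Kcnk4 passed in no comparison, at 25.2 ± 12.7 FPKM in HF_5AzaD, 17.3 ± 8.94 FPKM in HF_PBS, 27.8 ± 9.41 FPKM in HF and 30.6 ± 2.82 FPKM in chow.

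None of the 3 large-conductance (BK) members passed in any comparison, where 0% to 28.2% of all loci did. The pore Kcnma1 was at 26.3 ± 4.89 FPKM in HF_5AzaD, 21.4 ± 9.42 FPKM in HF_PBS, 28.0 ± 4.33 FPKM in HF and 31.4 ± 1.13 FPKM in chow. Kcnmb4, its neuronal beta subunit, was at 47.9 ± 17.6 FPKM in HF_5AzaD, 57.6 ± 16.5 FPKM in HF_PBS, 69.0 ± 17.2 FPKM in HF and 53.1 ± 5.98 FPKM in chow. Among the small-conductance channels Kcnn1 fell in HF_PBS, at 5.40 ± 2.70 FPKM in HF_5AzaD, 4.39 ± 1.53 FPKM in HF_PBS, 8.55 ± 0.508 FPKM in HF and 9.37 ± 1.23 FPKM in chow. With its loci summed the call against HF was lost (adjusted p = 0.0836). Kcnn2, at 10.1 ± 3.96 FPKM in HF_5AzaD, 13.2 ± 3.62 FPKM in HF_PBS, 10.6 ± 3.14 FPKM in HF and 8.85 ± 0.301 FPKM in chow, and Kcnn3 passed in no comparison. Kcnt1, a sodium-activated channel, fell in HF_PBS against both uninjected groups, at 28.9 ± 7.15 FPKM in HF_5AzaD, 20.5 ± 2.03 FPKM in HF_PBS, 29.5 ± 3.01 FPKM in HF and 28.6 ± 2.47 FPKM in chow.

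The diet without injections changed no member past the test. In HF against chow 0 of 72 members and 0% of all loci were called, with and without the libraries that stand apart. With all libraries, at an unadjusted p under 0.05 there were 8 members, 11.1%, against 6.88% of all loci. Ranges did not overlap for 12 members, 9 below chow and 3 above, 16.7% against 6.95% of all loci (3.97% below and 2.98% above), and the median difference was -0.13 against -0.01. The lowest p below chow, none past the test (adjusted p of 0.682 to 0.696), included those of Kcnc1 (-0.86), Kcne2 (-0.59), Kcnab3 (-1.66) and Kcns1 (-2.07). Above chow they were Kcng3 (0.85), Kcng1 (1.11), Kcnj2 (0.61), Kcnn3 (1.00) and Kcnab1 (0.40), with adjusted p of 0.682 to 0.731. For Kcns1 the 95% interval of the difference ran from -3.84 to -0.31, and for Kcnc1 from -1.54 to -0.18.

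The inhibitor set against its vehicle likewise gave 0 calls among the 72 members, also without the libraries that stand apart, and 0% among all loci. At an unadjusted p under 0.05 there were 5 members, 6.94%, against 7.42% of all loci. Ranges did not overlap for 2 members, Kcnt1 and Kcnk9, 2.78% against 2.4% of all loci (1.46% above HF_PBS, as both members were), and the median difference was 0.09 against 0.01. Kcnt1 had 27.7, 25.2, 39.3 and 23.5 FPKM in HF_5AzaD and 23.2, 20.7, 18.4 and 19.7 FPKM in HF_PBS (0.46, adjusted p = 0.586). Kcnk9 had 7.29, 7.26, 8.16 and 7.96 FPKM in HF_5AzaD and 5.99, 5.37, 5.87 and 4.15 FPKM in HF_PBS (0.49, adjusted p = 0.679). Other members with the lowest p were Kcnh3 (0.61), Kcnj6 (0.60) and Kcnj14 (0.22) above HF_PBS, and Kcna6 (-0.49), Kcne1l (-0.80), Kcnip1 (-0.35), Kcnab1 (-0.41) and Kcng4 (-0.47) below it, none past the test. For Kcnab2 the 95% interval of HF_5AzaD less HF_PBS ran from -0.15 to 0.90.

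Genes known to work with these channels were counted as a list of 30, of which 27 were tested. In HF_PBS 7 fell and 2 rose against HF, 33.3% called against 23.9% of all loci, and 10 fell and 0 rose against chow, 37% against 28.2%. In HF_5AzaD 2 fell and 1 rose against HF, 11.1% called against 14.2% of all loci, and 4 fell and 0 rose against chow, 14.8% against 16.3%. Falls alone in HF_PBS were 25.9% of partners against 13.2% of all loci beside HF, and 37% against 15.7% beside chow. In HF_5AzaD they were 7.41% against 7.64% beside HF, and 14.8% against 9.11% beside chow. None was called in the other comparisons. Amigo1, an auxiliary subunit of Kv2 channels, fell in all 4, at 11.3 ± 2.00 FPKM in HF_5AzaD, 9.78 ± 2.31 FPKM in HF_PBS, 20.5 ± 6.45 FPKM in HF and 23.1 ± 2.00 FPKM in chow. Dpp10, an auxiliary subunit of Kv4, fell in HF_PBS, by 0.90 against HF and 1.12 against chow, where its pore Kcnd2 was not called. Atp1b2, a glial pump subunit, rose against HF in both injected groups.

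Several members overlap other genes in the reference, and reads over such stretches cannot be told apart without strand. Rims4, which overlaps Kcnk15, fell in all 4 comparisons, at 10.5 ± 3.20 FPKM in HF_5AzaD, 9.56 ± 3.48 FPKM in HF_PBS, 27.0 ± 9.37 FPKM in HF and 30.1 ± 1.17 FPKM in chow. Kcnk15 fell only in HF_PBS against chow. Mcrs1, which overlaps Kcnh3, fell in HF_PBS against HF (-0.42) and chow (-0.41), by less than Kcnh3 did (-0.95 and -1.09). Nphp4, which overlaps Kcnab2, fell only in HF_PBS against HF (-0.38). Gca, which overlaps Kcnh7, and Igsf8, which overlaps Kcnj9, were called in no comparison. The calls of Kcnh7 and Kcnj9 were not shared by their overlapping neighbours.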

How the data were processed

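Frontal cortex RNA was sequenced in 16 libraries, 4 per group, and the authors deposited 1 table of FPKM per merged locus with a status for each value. Tools named in the submitters' processing notes are Bowtie, Bowtie2, TopHat, TopHat2, Cufflinks and Cuffdiff, with the rat build rn5. Of 28168 loci, the 14824 with a mean of 1 FPKM or more and status OK throughout entered 1 fit of limma 3.58.1 (R 4.3.3) to log2(FPKM + 0.5). It had a mean per group, a trended prior and 12 residual degrees of freedom. Benjamini-Hochberg adjustment was made over all tested loci in each of 6 contrasts. The pseudocount understates changes of low genes. The fit was also run on simulated data whose noise was independent between loci. Such data lack deviations that many loci of a library share, so the run cannot check the calls against those. Groups follow the labelled treatment and library numbers the titles. The genes named are the called members, at most 15 per direction with the lowest p. Where none was called they are 5 per direction. To these come a fixed list given in every group and some members and partners chosen after their values were seen. The members and gene lists were chosen with earlier results of these data known, the overlapping genes and choroid plexus markers after their values were seen here. Promoters were matched by symbol, and protein sequences were not used here. Of 30 partners, Cntnap2 and Adam22 are not analysed here and Lrrc52 was under 1 FPKM. Columns of samples outside the series numbered 0. Summaries were made in Python 3.11.15. Some genes that enter the fit and the counts are not reported here.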

Additional observations from a re-analysis of the deposited data

Results flagged for a closer look

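A library far from the other 3 of its group, by Dixon's test at the 95% level, was found in 8 of 191 group-wise checks over 48 genes, and chance gives about 1 in 20. HF 6 stood above the other HF libraries for Kcnh7 at 21.5 FPKM, Kcnk9 at 24.4 FPKM and Kcnq5 at 41.3 FPKM. HF 8 stood below its group for Kcnn1 at 7.79 FPKM, and HF 7 below it for Kcnrg at 3.47 FPKM. HF_PBS 3, the library lowest in excitatory neuron markers, stood above its group for Kcnj16 at 19.5 FPKM. In chow, library 4 was low for Kcnab3 at 17.4 FPKM and library 1 high for Kcnj10 at 51.3 FPKM.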

How the results depend on the processing

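Counts of called members under alternatives are given beside the reported counts of 15 (HF_PBS against HF), 6 (HF_5AzaD against HF), 36 (HF_PBS against chow) and 17 (HF_5AzaD against chow). Another pseudocount, centring, quantile normalisation, summed loci, kept or missing failed values and a constant prior left all of them within 1.5 times. Percentages in brackets here are the shares of all loci called in either direction in the same fit. With no filter on low values HF_5AzaD against chow had 10 (7.68%). With only the 2 groups fitted, HF_PBS against HF had 7 (9.67%) and HF_5AzaD against HF 0 (0.182%). With sample weights HF_5AzaD had 2 against HF (8.97%) and 27 against chow (25.4%). Leaving out 1 library gave 5 to 23, 0 to 9, 12 to 39 and 3 to 24 calls in the order above, and 0 to 0 for HF against chow and for HF_5AzaD against HF_PBS. Chosen after seeing the data, leaving out the 4 libraries high in striatal markers gave 0 for HF_PBS against HF and against chow, leaving out the 2 high in myelin markers gave 0 for both and 12 for HF_5AzaD against HF, and leaving out the 3 lowest in excitatory neuron markers gave 0 for HF_5AzaD against HF and against chow. These fits have fewer samples, and the cause was otherwise not tested. Same-numbered libraries did not deviate together (correlations -0.164 to 0.0641, 0 best with their own number). With so few shared numbers this cannot settle whether the numbers pair them. A replicate block gave 30 calls for HF_PBS against chow (15.7% of all loci called). It gave 0 for HF_5AzaD against HF (0% of all loci), where 3 numbers are shared. The other comparisons share fewer than 2 numbers. Of 1189 alternative values of called genes 905 kept their call, 284 (23.9%) lost it and 0 reversed. Most often lost were Kcnb2 (14 of 22), Kcng3 (13 of 22) and Kcnn1 (12 of 22) in HF_PBS against HF and Kcnj12 (14 of 23) in HF_5AzaD against HF.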
